A study of Oryza sativa with 6 samples.

Results

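A set of 10 genes of DNA replication and nucleotide supply was followed in rice leaves, chosen by their locus identifiers from a table of 55986 gene models. All 10 were found in the table. They are the helicase subunits MCM2 (LOC_Os11g29380), MCM3 (LOC_Os05g39850), MCM4 (LOC_Os01g36390), MCM5 (LOC_Os02g55410), MCM6 (LOC_Os05g14590) and MCM7 (LOC_Os12g37400), the sliding clamp PCNA (LOC_Os02g56130), the ribonucleotide reductase large subunits RNRL1, also called V3 (LOC_Os06g07210), and RNRL2 (LOC_Os02g56100), and the small subunit RNRS1 (LOC_Os06g14620). The names are those given with the identifiers when the genes were chosen. A RefSeq gene table lists 7 of them, the 6 MCM genes and PCNA, each on the chromosome that the identifier gives, and the 3 reductase names were not found there.

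Leaf RNA was sequenced from Balilla-4x, an artificial tetraploid with 48 chromosomes, and from Balilla-2x, the diploid japonica rice with 24 chromosomes from which it was made by doubling. The plants of both lines were 4 weeks old, field-grown and labelled as normally treated, and each line has 3 libraries. The labels do not say whether the libraries came from separate plants, so p-values measure the spread between libraries, which may be technical. Balilla-4x stands for a single doubled line, and how it was propagated after doubling is not given in the sources used here.

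MCM2 to MCM7 form a ring with 1 copy of each subunit, which is loaded on DNA before S phase and unwinds it as the core of the replicative helicase. PCNA is the ring that holds DNA polymerases on the template and also serves in DNA repair. Ribonucleotide reductase makes deoxyribonucleotides from ribonucleotides, and its large subunits carry the catalytic and regulatory sites while the small subunit provides the radical for the reaction. In rice, mutation of RNRL1 (V3) or of RNRS1 (the St1 gene) can give virescent or striped leaves, and chloroplast DNA also needs deoxyribonucleotides. In plants, transcripts of the MCM genes are most abundant where cells divide, and an expanded leaf blade holds few such cells.

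In these leaves, the helicase genes fell into very different ranges. MCM2 was read at 110 to 216 counts per library, while none of MCM3 to MCM7 exceeded 7 counts in any library. MCM2 rose 1.65-fold in the tetraploid. PCNA, RNRL1, RNRL2 and RNRS1 were all clearly read, and none of them passed the test in edgeR, DESeq2 or limma. Their unadjusted p-values in edgeR ran from 0.192 to 0.662. Library totals were 16738447 to 17078688 counts in Balilla-4x and 17147985 to 18106962 in Balilla-2x, so that 3 counts equalled 0.17 to 0.178 CPM. CPM are counts brought to a common library size and scaled by TMM, a normalization that aligns the bulk of genes between libraries. Of 55986 gene models, 20976 had enough counts to be tested, among them 5 of the 10 genes, namely MCM2, PCNA, RNRL1, RNRL2 and RNRS1. Across all tested genes 26.1% changed at an adjusted p under 0.05 in the quasi-likelihood test of edgeR, 12.4% being higher and 13.7% lower in the tetraploid, and 11.7% changed at least 2-fold. Of the 5 tested genes of the set, 1 changed, and it was higher. A share of 1 in 5 is near that background and is no result about the set. The median log2 fold change was 0.05 over the 5 genes and 0.01 over all tested genes.

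MCM2, a subunit at the gate of the helicase ring, lies on chromosome 11 at locus number 29380 (locus numbers give the order of genes, not distances). Its counts were 191, 199 and 216 in the Balilla-4x libraries, against 138, 110 and 121 in the Balilla-2x libraries. On the CPM scale these were 11.2, 11.3 and 12.6 in Balilla-4x, against 7.83, 6.23 and 7.18 in Balilla-2x. Every tetraploid library was above every diploid one, as was the case in the same direction for 21.6% of all tested genes. MCM2 averaged 11.7 ± 0.785 CPM in the tetraploid and 7.08 ± 0.808 CPM in the diploid (SD, n = 3 each). The log2 fold change was 0.73 with a standard error of 0.16, or 1.65-fold with a 95% interval of 1.29 to 2.12 (edgeR quasi-likelihood test, adjusted p = 0.0116 over all tested genes). The call was kept in each of 14 alternative analyses, where the adjusted p was between 0.00347 and 0.0453 (edgeR, DESeq2 and limma). A log2 fold change at least as large was found for 13.3% of all tested genes. Values are relative to the RNA of each library. In whole leaves, more cells that express MCM2 and more RNA of it per cell cannot be told apart.

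The genes around MCM2 were mostly not called. Of the 10 nearest tested genes, 5 on each side, 1 was higher, 0 were lower and 9 were not called. Over all tested genes 26.1% were called. The median log2 fold change of the 10 neighbours was -0.07 (edgeR). The gene just before MCM2 had a log2 fold change of 0.00 (edgeR adjusted p = 0.991) and the gene just after it -0.08 (edgeR adjusted p = 0.69). By the same rule, 1 neighbour was higher and 3 were lower around RNRL1, and 2 were higher and 4 lower around RNRS1. Around PCNA 2 were higher and 1 was lower, and around RNRL2 1 was higher and 1 lower. This look at neighbours was chosen after the values of MCM2 had been seen.

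The other helicase subunits were read at the edge of detection. MCM3 had 3, 0 and 1 counts in Balilla-4x, against 0 in each Balilla-2x library. MCM6 had 5, 0 and 2 counts in Balilla-4x, against 0 in each Balilla-2x library. MCM5 had 2, 7 and 1 counts in Balilla-4x, against 0 in each Balilla-2x library. MCM5 forms the gate of the ring with MCM2, MCM3 sits beside MCM5, and MCM6 belongs to the catalytic core. MCM5 was seen in every tetraploid library, while MCM3 and MCM6 had 0 counts in Balilla-4x replicate 2. All 3 genes had 0 counts in all Balilla-2x libraries. That also held for 26.8% of all genes with a count that were too low to be tested. Of those genes, 17.2% had 0 counts in all Balilla-4x libraries. A pooled count of 0 over the 3 Balilla-2x libraries allows up to 0.0575 CPM. MCM7, also of the catalytic core, had 4, 2 and 0 counts in Balilla-4x, against 0, 0 and 1 in Balilla-2x. MCM4, of the catalytic core as well, had 1, 1 and 2 counts in Balilla-4x, against 0, 6 and 1 in Balilla-2x, so its 3 values per line overlapped and its highest value was in the diploid.

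Together MCM3 to MCM7 gave 15, 10 and 6 counts in the Balilla-4x libraries and 0, 6 and 2 in the Balilla-2x libraries. On the CPM scale the sums were 0.879, 0.569 and 0.35 in Balilla-4x and 0, 0.34 and 0.119 in Balilla-2x. The lowest tetraploid and the highest diploid sum nearly touch, and the 6 counts of Balilla-2x replicate 2 all came from MCM4. Balilla-4x replicate 1 was the only library with a count for all 5 genes, and Balilla-2x replicate 1 the only library with a count for none. The plot of MCM3 to MCM7 counts shows these sums by gene.

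**Figure D1:**
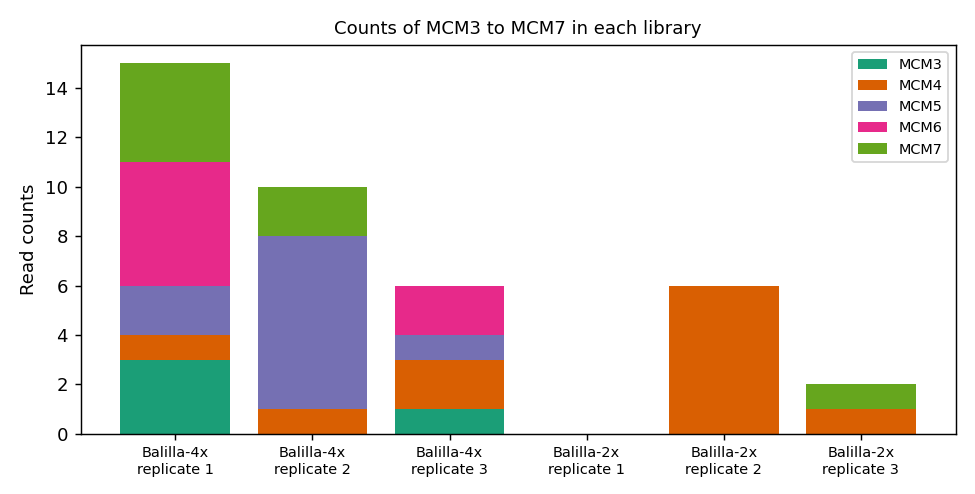
Read counts (vertical axis) of MCM3, MCM4, MCM5, MCM6 and MCM7 stacked for each of the 3 Balilla-4x and 3 Balilla-2x libraries. The tetraploid bars reach 15, 10 and 6 counts and the diploid bars 0, 6 and 2, and MCM4 makes up all of the bar of Balilla-2x replicate 2.

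None of these 5 genes entered the test, and at this depth their differences rest on single reads. Pooled over the libraries of a line, MCM5 had 10 counts in Balilla-4x, against 0 in Balilla-2x, and the exact 95% interval of the ratio began at 2.26. For MCM6, with 7 counts against 0, it began at 1.45. For MCM3, with 4 counts against 0, it began at 0.665 and so included no change. Each of these counts came mostly from 1 library. Balilla-4x replicate 2 gave 7 of the 10 counts of MCM5, and Balilla-4x replicate 1 gave 5 of the 7 counts of MCM6 and 3 of the 4 counts of MCM3. Without that library 3, 2 and 1 counts were left for MCM5, MCM6 and MCM3, which is no more than the 3 counts that a count of 0 allows. MCM7 had 6 pooled counts in Balilla-4x, against 1 in Balilla-2x, a ratio of 6.04 with an exact 95% interval of 0.733 to 278. MCM4 had 4 in Balilla-4x and 7 in Balilla-2x, a ratio of 0.575 with an exact 95% interval of 0.124 to 2.26. These intervals cover counting error only and leave out the spread between libraries. When the filter on low counts was dropped, all 5 were tested and none passed (edgeR adjusted p = 0.116 for MCM5, 0.199 for MCM6, 0.307 for MCM3, 0.434 for MCM7 and 0.749 for MCM4). The smallest unadjusted p of the 5 was that of MCM5 (0.0291 in edgeR), and DESeq2 called none of them. Among the 10010 genes with a count that were too low to be tested, 60.8% had the higher mean CPM in Balilla-4x and 26.8% had 0 counts in all Balilla-2x libraries, so higher values in the tetraploid were common at this depth.

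MCM2 therefore made up nearly all of the helicase transcripts counted. Per length, as FPKM (fragments scaled to gene length and library total, deposited by the authors), MCM2 was 91.9%, 94.7% and 97.0% of the summed level of MCM2 to MCM7 in the Balilla-4x libraries. In the Balilla-2x libraries its share was 100%, 94.3% and 98.2%. The shares overlapped between the lines, at 94.5% ± 2.57 in the tetraploid and 97.5% ± 2.93 in the diploid (SD, n = 3 each). In Balilla-4x the mean FPKM of MCM2 was 54.9 times that of MCM5, the highest of the other subunits, and 136 times that of MCM4, the lowest. In Balilla-2x it was 47.6 times that of MCM4 and 309 times that of MCM7, where MCM7 rests on 1 count, and the remaining 3 were listed at 0. By mean CPM over the 6 libraries, MCM2 stood above 58.2% of the genes with a count, and MCM3 to MCM7 above 12.8% to 19.6%. How the authors assigned reads that fit more than 1 place is not given in the sources used here, so reads of another similar sequence within the MCM2 count were not tested.

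PCNA, the clamp, did not pass the test. It had 245, 261 and 232 counts in Balilla-4x, against 258, 309 and 227 in Balilla-2x. The libraries overlapped, at 14.2 ± 0.655 CPM in the tetraploid and 15.2 ± 2.07 CPM in the diploid (SD, n = 3 each). The fold was 0.937 with a 95% interval of 0.753 to 1.17 (edgeR quasi-likelihood test, adjusted p = 0.653). The interval leaves room for a modest difference in either direction, but a rise of the size fitted for MCM2 lies outside it. The ratio of MCM2 to PCNA in FPKM was 0.303, 0.297 and 0.362 in the Balilla-4x libraries, against 0.208, 0.138 and 0.207 in the Balilla-2x libraries. Every tetraploid ratio was above every diploid one, as was already the case for MCM2 alone. The lowest ratio was in Balilla-2x replicate 2, where PCNA was highest and MCM2 lowest among the diploid libraries. Whether the changes of the 2 genes differ was not tested.

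**Figure D2:**
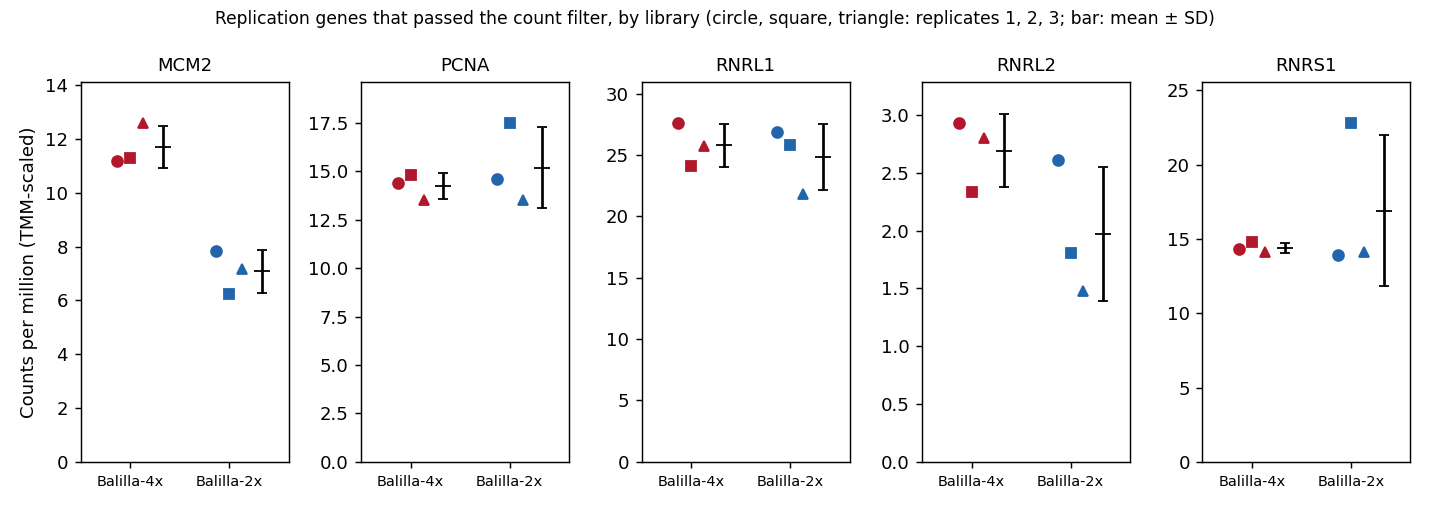
CPM (vertical axis, from 0, a scale of its own per gene) of the 5 genes that passed the count filter, with 3 Balilla-4x libraries in red and 3 Balilla-2x libraries in blue and the mean ± SD in black. MCM2 is at 11.2 to 12.6 CPM in the tetraploid and at 6.23 to 7.83 CPM in the diploid, while the other 4 genes overlap between the lines.

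Among the reductase genes, the large subunit RNRL1 was the most abundant in counts. It had 471, 424 and 440 counts in Balilla-4x, against 474, 456 and 368 in Balilla-2x. The lines overlapped, at 25.8 ± 1.75 CPM in the tetraploid and 24.8 ± 2.68 CPM in the diploid (SD, n = 3 each). Its fold was 1.04 with a 95% interval of 0.86 to 1.25 (edgeR adjusted p = 0.769). This was the narrowest interval of the 5 genes on the log2 scale.

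RNRL2, the second large subunit, was read far less. It had 50, 41 and 48 counts in Balilla-4x, against 46, 32 and 25 in Balilla-2x. Balilla-2x replicate 1 lay within the range of the tetraploid, and the other 2 diploid libraries lay below it. The means were 2.69 ± 0.316 CPM in the tetraploid and 1.97 ± 0.58 CPM in the diploid (SD, n = 3 each). The fold was 1.36, but with a 95% interval of 0.828 to 2.24 (edgeR adjusted p = 0.329), so a change as large as that of MCM2 could not be told from none at this depth.

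RNRS1, the small subunit, was nearly level in 5 of the 6 libraries. It had 244, 260 and 242 counts in Balilla-4x, against 244, 402 and 237 in Balilla-2x. The value of Balilla-2x replicate 2 stood apart from the others. The means were 14.4 ± 0.34 CPM in the tetraploid and 16.9 ± 5.08 CPM in the diploid (SD, n = 3 each). The fold was 0.853 with a 95% interval of 0.623 to 1.17 (edgeR adjusted p = 0.426). Without Balilla-2x replicate 2 the log2 fold change turned from -0.23 to 0.04 (edgeR adjusted p = 0.862). The coefficient of variation of RNRS1 was 2.36% over the tetraploid libraries, against 30.1% over the diploid ones, and 17.4% of all tested genes varied at least as much in the diploid.

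**Figure D3:**
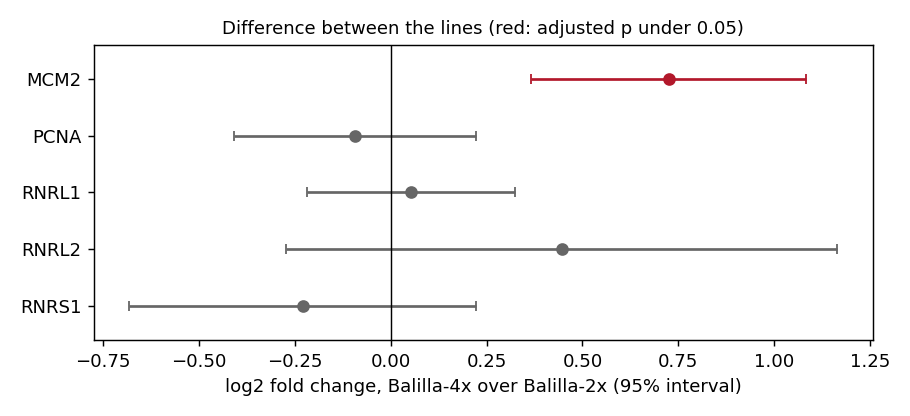
Log2 fold change of Balilla-4x over Balilla-2x (horizontal axis) with its 95% interval from the edgeR quasi-likelihood fit for the 5 tested genes. The interval of MCM2 runs from 0.37 to 1.08 and lies above 0, and those of PCNA, RNRL1, RNRL2 and RNRS1 include 0.

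The balance of the reductase subunits was compared per length. RNRL2 made up 10.02%, 9.21% and 10.3% of the large-subunit FPKM in the Balilla-4x libraries, against 9.24%, 6.86% and 6.66% in the Balilla-2x libraries. The lines met at the edge, since the lowest tetraploid share was 9.21% and the highest diploid share 9.24%. RNRL1 was thus the main large subunit transcript in every library. The ratio of RNRS1 to the sum of both large subunits was 0.891, 1.06 and 0.944 in Balilla-4x, against 0.893, 1.57 and 1.15 in Balilla-2x. These ratios overlapped, with means of 0.966 ± 0.0888 in the tetraploid and 1.20 ± 0.342 in the diploid (SD, n = 3 each). How reads shared by the related RNRL1 and RNRL2 genes were assigned is unknown, so their split is uncertain.

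Set in order by FPKM, the genes ranked the same way in both lines down to the fifth place. In Balilla-4x the order was PCNA at 11.6 ± 0.717, RNRS1 at 8.89 ± 0.35, RNRL1 at 8.33 ± 0.523, MCM2 at 3.71 ± 0.2 and RNRL2 at 0.91 ± 0.0975 FPKM (SD, n = 3). In Balilla-2x it was PCNA at 11.9 ± 1.62, RNRS1 at 10.01 ± 3.02, RNRL1 at 7.70 ± 0.794, MCM2 at 2.15 ± 0.239 and RNRL2 at 0.64 ± 0.185 FPKM (SD, n = 3). RNRS1 and RNRL1 overlapped in both lines, and PCNA and RNRS1 overlapped in Balilla-2x only, where replicate 2 carried the high RNRS1 value. MCM2 lay below all RNRL1 values and above all RNRL2 values in each line. The remaining subunits followed at 0.0273 to 0.0676 FPKM in the tetraploid and at 0 to 0.0453 FPKM in the diploid.

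Within a line, the genes were not all highest in the same library. Balilla-2x replicate 2 held the highest diploid value of PCNA (17.5 CPM, against 14.6 and 13.5 in replicates 1 and 3), of RNRS1 (22.8 CPM, against 13.9 and 14.1) and of MCM4. The same library held the lowest diploid value of MCM2 (6.23 CPM). RNRL1 and RNRL2, whose shared reads were assigned in an unknown way, were both highest in replicate 1 of each line, and both lowest in replicate 2 of Balilla-4x and in replicate 3 of Balilla-2x. Over the tetraploid libraries the coefficients of variation of the 5 genes were 2.36% to 11.7%, and over the diploid ones 10.8% to 30.1%. The medians over all tested genes were 13.5% in the tetraploid and 12.5% in the diploid.

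**Figure D4:**
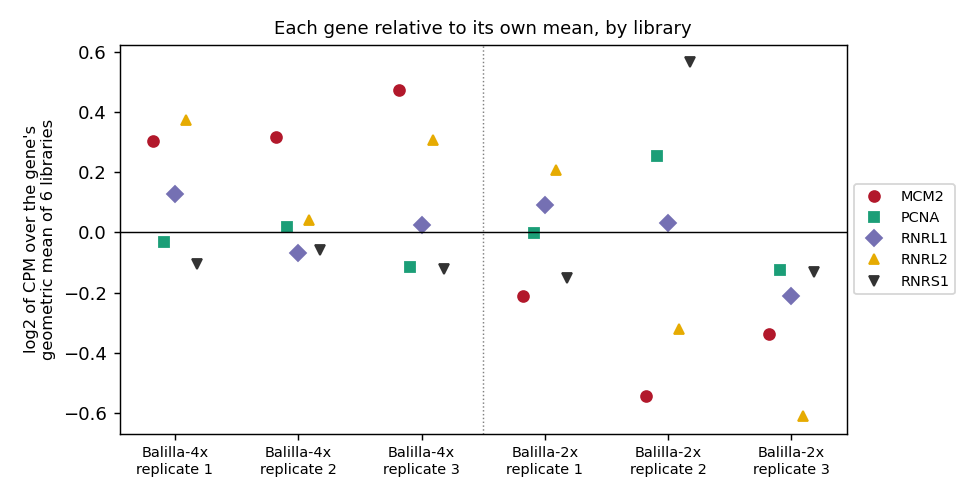
Log2 of each gene's CPM over its geometric mean of the 6 libraries (vertical axis) for MCM2, PCNA, RNRL1, RNRL2 and RNRS1, with the 3 Balilla-4x libraries left of the dotted line and the 3 Balilla-2x libraries right of it. MCM2 is at 0.30 to 0.47 in the tetraploid and at -0.54 to -0.21 in the diploid, and RNRS1 reaches 0.57 in Balilla-2x replicate 2 and lies at -0.15 to -0.06 in the other libraries.

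RNRL2 and PCNA are near neighbours on chromosome 2, at locus numbers 56100 and 56130, with 2 tested genes between them. LOC_Os02g56110, next to RNRL2, had 247, 264 and 213 counts in Balilla-4x, against 209, 190 and 173 in Balilla-2x, and did not pass the test (1.27-fold, edgeR adjusted p = 0.10). LOC_Os02g56120, next to PCNA, had 1, 4 and 5 counts in Balilla-4x, against 13, 19 and 14 in Balilla-2x. It was lower in the tetraploid (fold 0.225, log2 standard error 0.57, edgeR adjusted p = 0.0246), beside PCNA and RNRL2, which were not called. LOC_Os02g56120 passed the count filter only through its diploid counts, and its tetraploid counts were close to the edge of detection. No name is given for either identifier in the files.

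The tested genes whose profile lay nearest to that of MCM2 were LOC_Os03g44530 on chromosome 3 and LOC_Os06g34450 on chromosome 6. Likeness was the root mean square difference of log2 CPM over the 6 libraries, each gene centred on its own mean. It was 0.03 for LOC_Os03g44530 and 0.05 for LOC_Os06g34450, against a median of 0.45 over all other tested genes. LOC_Os03g44530 had 9.79, 10.2 and 10.8 CPM in Balilla-4x, against 6.76, 5.60 and 6.29 CPM in Balilla-2x. Within the set, the difference from MCM2 was 0.25 for RNRL2, 0.37 for RNRL1, 0.46 for PCNA and 0.56 for RNRS1. These were the nearest of 20976 tested genes over 6 libraries, and the values are a description only.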

How the data were processed

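The authors deposited raw read counts per gene for 6 libraries and FPKM values per library, per the file headers. HISAT2 2.1.0 is named in the submitters' processing notes, while strand use, counting program, genome build and annotation were each not given in the sources used here. Counts, FPKM and library totals gave the same gene length within 0.01 bases in every library for all 30986 genes with a count, so both tables hold 1 measurement. Counts went into edgeR 4.0.16 under R 4.3.3 (filterByExpr, TMM, quasi-likelihood F test, two-sided, Benjamini-Hochberg over 20976 genes holding 99.9% of counts, threshold 0.05). Standard errors and 95% intervals were taken from the fitted log2 fold change, the F statistic and its degrees of freedom. The fit was also run on simulated counts drawn from the fit itself, with 200 changed genes. The data had 5481 called genes, so that run gives no error rate for the calls reported here. DESeq2 1.42.0, limma 3.58.1 on log2 FPKM, other scalings and left-out libraries served as alternatives. Members and tests were chosen with earlier results of these data known. All 10 members are named, with the 2 genes nearest to MCM2 in profile and the genes between RNRL2 and PCNA. Of the table's identifiers, 0 matched the 39387 RefSeq genes (assembly ASM3414082v1), so further replication genes and leaf or dividing-cell markers could not be looked up, and the tissue label was not checked. No library duplicated another (between libraries of a line, chi-square was at least 8.86 per degree of freedom).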

Additional observations from a re-analysis of the deposited data

How the results depend on the processing

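MCM2 was called higher, and no other gene of the set was called, in each of the 14 alternatives (log2 fold change of MCM2 from 0.28 with limma on log2 FPKM plus 5, where the added value shrinks folds, to 0.80 without Balilla-2x replicate 1). The alternatives with other scalings, limma or the replicate block kept the 20976 filtered genes. MCM3 to MCM7 were not among those genes and could not be called there. Directions turned, all far from the threshold, for PCNA without Balilla-2x replicate 2 (0.0146), for RNRS1 without that library (0.0409) and for RNRL1 without Balilla-4x replicate 1 (-0.000106) and without Balilla-2x replicate 3 (-0.0371). Over the left-out libraries the log2 fold change ran from -0.179 to 0.0146 for PCNA, from -0.0371 to 0.117 for RNRL1 and from -0.359 to 0.0409 for RNRS1. With a library left out, the number of called genes in the whole table ran from 3029, without Balilla-4x replicate 2, up to 6600, without replicate 1 of that line, against 5481, and the number called higher from 1496 to 3031, against 2598. It was 3306 without Balilla-4x replicate 3 and 3269 without Balilla-2x replicate 3. The share of called genes that were higher was 47.4% with TMM and 57.3% with library totals. With CPM per kilobase in place of FPKM, levels moved by less than 1 SD. Subunit shares and ratios could not move, since the scales differ only by a factor common to all genes of a library. That alternative therefore does not test them. Leaving out 1 of 3 libraries cannot move a mean by 1 SD, so it does not test the stability of levels or shares. It moved RNRS1 in Balilla-2x most, to 8.27 FPKM without replicate 2, against 10.01. The labels state no pairing by replicate number. Deviations from the line mean of equally numbered libraries correlated at 0.0019, -0.023 and -0.044. No shared deviation was thus seen, which does not settle whether the libraries were paired. With the replicate block, 4617 genes were called, 2120 of them higher, and 1 of the set, MCM2 (log2 fold change 0.73, edgeR adjusted p = 0.0266). Depth limits MCM3 to MCM7, with 31 pooled counts in the tetraploid and 8 in the diploid.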
